A study of Mus musculus with 9 samples.

Results

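The genes described here are 8 members of the PPAR axis of lipid metabolism, the receptors *Ppara* and *Pparg* and the targets *Cpt1a*, *Pdk4*, *Ehhadh*, *Cyp4a10*, *Angptl4* and *Plin2*. They were chosen by gene symbol, with earlier results of these data known. Each symbol matched 1 Ensembl mouse gene, and together they are 8 of the 54838 genes with a value in each RNA-seq library. The organoids were grown from small intestinal crypts, and the adult male mice that gave them were *Vil-CreERT2*;*Mettl3* fl/fl, in which the villin promoter drives a Cre recombinase in the intestinal epithelium and 4-hydroxytamoxifen (4-OHT) switches it on. They received ethanol (EtOH) or 500 nM 4-OHT for 2 days, with the solvent DMSO or the RIPK1 inhibitor necrostatin-1 (Nec-1) for 5 days. There were 7 libraries in 4 groups, with a pair of libraries for EtOH DMSO, for EtOH Nec-1 (Nec-1 alone) and for 4-OHT DMSO (4-OHT alone), and a single library (n = 1) for 4-OHT Nec-1 (both agents). All 4 groups carried both the Cre transgene and the floxed alleles, and no group without Cre received 4-OHT, so an effect of 4-OHT itself and an effect of the deletion cannot be told apart. The labels do not say whether replicates came from separate cultures, so p-values measure only the spread between these samples, which may be technical.

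The PPARs are nuclear receptors that fatty acids activate and that bind DNA as partners of a retinoid X receptor (RXR). PPARα drives the burning of fatty acids in mitochondria and peroxisomes and the making of ketone bodies in fasted liver, and it acts in the absorptive cells of the small intestine after a fatty meal. PPARγ is best known as the master regulator of fat cells and is also expressed in gut epithelium.

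Values were FPKM, which the authors had scaled to the length of each transcript and to the mapped fragments of each library. The sum of FPKM ran from 450207 to 498712 between libraries, and the number of genes at 1 FPKM or more from 11559 to 12038. Fragment counts were not used here, so the depth behind single values is unknown. The spacing of the lowest values put the relative depth at 0.853 to 1.04 of the first EtOH DMSO library. *Mettl3*, the targeted gene, was at 2.70 and 2.71 FPKM in EtOH DMSO and at 3.72 and 4.14 FPKM with 4-OHT alone. It was at 3.36 FPKM with both agents. The targeted gene thus rose, and did not fall, in the libraries labelled 4-OHT DMSO (log2 fold change 0.41 ± 0.098, limma adjusted p = 0.0231). This rise was called in 7 of 15 alternatives and positive in all 15, with adjusted p from 0.018 to 0.0914. It was 0.0796 with median centring, 0.0686 and 0.0639 without the first and the second EtOH DMSO library, 0.0587 and 0.0589 without the first and the second EtOH Nec-1 library, and 0.0914 without the second 4-OHT DMSO library. An FPKM value for a whole gene does not show which exons were read, so these values cannot tell whether the deletion took place. Group names below are those of the labels, and 4-OHT organoids are those labelled so.

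Differences in log2(FPKM + 1) were tested with limma for 12702 genes that reached 1 FPKM in 2 or more libraries, with Benjamini-Hochberg adjustment over all of them, and a gene was called at an adjusted p under 0.05. The added 1 FPKM makes log2 fold changes of low genes smaller than the ratio of their values. *Ppara*, *Pparg*, *Cpt1a*, *Ehhadh*, *Angptl4* and *Plin2*, 6 of the 8 members, passed this filter. *Pdk4* and *Cyp4a10* did not, and they are given as values. The lone 4-OHT Nec-1 library entered the fit on the assumption that it varies like the libraries of the other groups. Counts at an unadjusted p under 0.05 are given without the share of all tested genes at that limit, so they have no background.

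The 8 members spanned a wide range of levels in these organoids. Mean FPKM over the 7 libraries, with the SD over libraries, was 35.1 ± 4.01 for *Ehhadh*, 24.2 ± 4.36 for *Cpt1a*, 16.1 ± 3.99 for *Pparg* and 13.4 ± 0.796 for *Plin2*. It was 3.79 ± 0.865 for *Ppara*, 2.01 ± 0.747 for *Angptl4*, and 0.608 ± 0.39 for *Pdk4*, while *Cyp4a10* lay between 0 and 0.344 FPKM. Since FPKM are scaled per length, these levels can be ordered, and the order of each neighbouring pair held in 7 of 7 libraries except that *Pparg* exceeded *Plin2* in 5 of 7. The ranges over libraries overlapped between all neighbours but *Plin2* and *Ppara*, which lay apart. Between the receptors, *Pparg* stood well above *Ppara* in each library. *Ehhadh* lay at percentile 88.2 of the mean levels of the tested genes, and *Angptl4* at percentile 19.9.

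**Figure D1:**
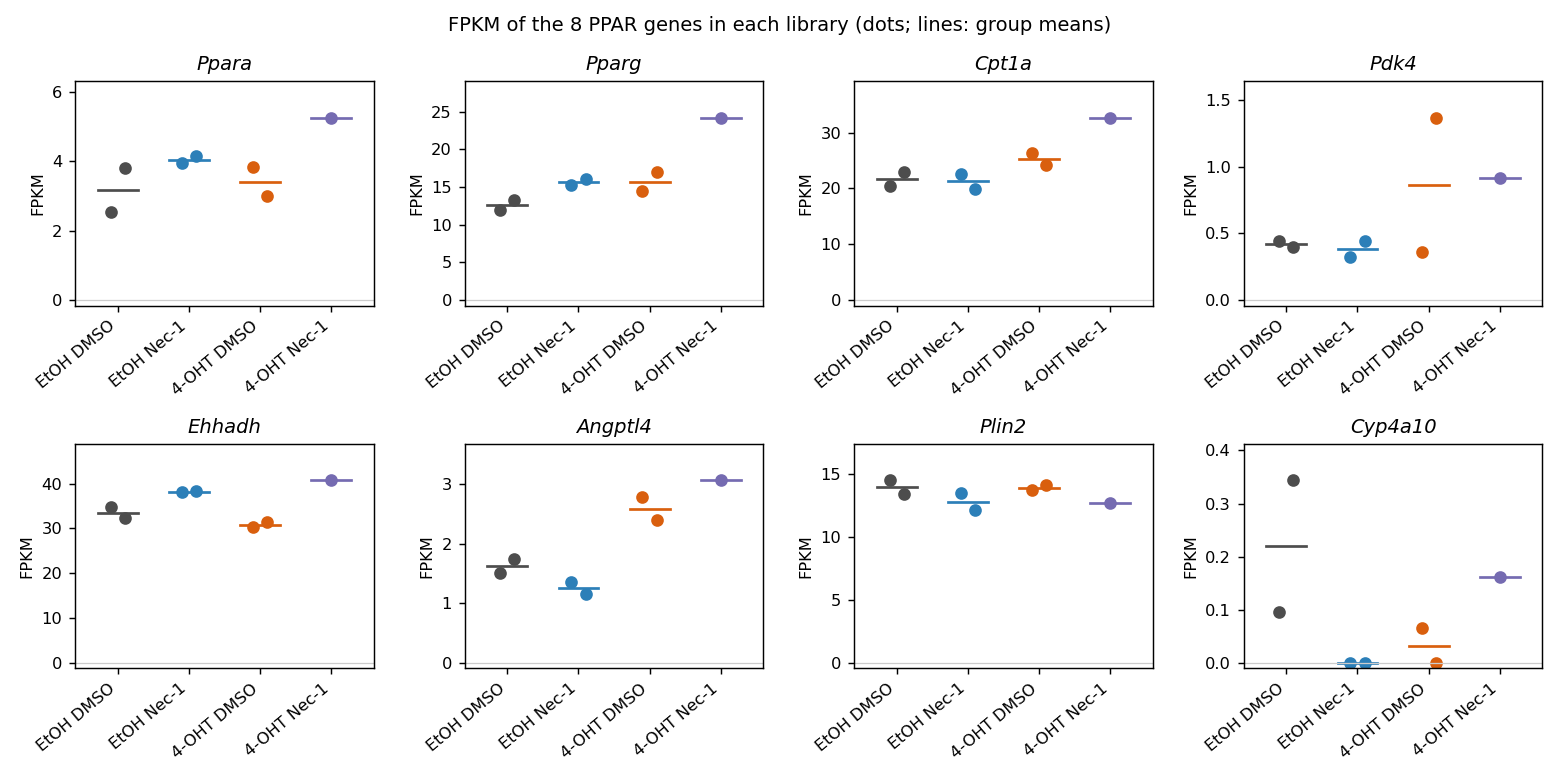
FPKM (vertical axes, linear, from 0) of the 8 members in the 7 libraries, grouped on the horizontal axes. Each dot is 1 library and each line a group mean. The 4-OHT Nec-1 dot is the highest of the panel for *Ppara*, *Pparg*, *Cpt1a*, *Ehhadh* and *Angptl4*, while *Plin2* stays between 12.1 and 14.5 FPKM.

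*Ppara* (ENSMUSG00000022383, chr15:85734910-85806851 in GRCm38.p6) was at 2.54 and 3.80 FPKM in the EtOH DMSO libraries, 3.95 and 4.15 with Nec-1 alone, 3.82 and 2.99 with 4-OHT alone and 5.26 with both agents. The EtOH DMSO and 4-OHT DMSO libraries overlapped, and the library with both agents was the highest. None of its differences passed the test. The log2 fold change was 0.09 ± 0.18 (SE) for 4-OHT DMSO against EtOH DMSO (limma adjusted p = 0.72), 0.29 ± 0.18 for Nec-1 in EtOH organoids (adjusted p = 0.531) and 0.51 ± 0.22 for Nec-1 in 4-OHT organoids (adjusted p = 0.333). The sign of the first of these changed with the scaling of the libraries, to −0.07 with each library centred on its median and −0.04 with upper quartile scaling.

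*Pparg* (ENSMUSG00000000440, chr6:115360879-115490404) was at 11.97 and 13.3 FPKM in the EtOH DMSO libraries, 15.3 and 16.1 with Nec-1 alone, 14.4 and 17.0 with 4-OHT alone and 24.2 with both agents. Each agent alone gave values above each EtOH DMSO library, and the 2 agents together gave the highest value. The log2 fold change was 0.29 ± 0.11 for 4-OHT (adjusted p = 0.0833), 0.29 ± 0.11 for Nec-1 in EtOH organoids (adjusted p = 0.356) and 0.60 ± 0.13 for Nec-1 in 4-OHT organoids (adjusted p = 0.119). None passed the threshold. In linear FPKM the last difference was 1.54-fold. Without the first 4-OHT DMSO library the 4-OHT difference was 0.40 with an adjusted p of 0.0456, and over the 15 alternative fits of that difference the adjusted p ran from 0.0456 to 0.321.

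The third PPAR, *Ppard*, is no member and was added to the description after its values were seen. It was at 2.58 and 4.00 FPKM in the EtOH DMSO libraries, 4.25 and 4.42 with Nec-1 alone, 3.66 and 3.46 with 4-OHT alone and 8.02 with both agents. When Nec-1 was added to 4-OHT organoids its log2 fold change was 0.98 ± 0.21 (limma adjusted p = 0.108), and like *Pparg* it was highest in the library with both agents.

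*Cpt1a* (ENSMUSG00000024900, chr19:3322326-3385735) encodes the carnitine palmitoyltransferase that commits long-chain fatty acids to mitochondrial entry. It was at 20.4 and 23.0 FPKM in the EtOH DMSO libraries, 22.6 and 20.0 with Nec-1 alone, 26.4 and 24.3 with 4-OHT alone and 32.7 with both agents. The 3 libraries labelled 4-OHT lay above the 4 EtOH libraries, which overlapped each other. The log2 fold change was 0.22 ± 0.11 for 4-OHT (limma adjusted p = 0.161), −0.03 ± 0.11 for Nec-1 in EtOH organoids (adjusted p = 0.95) and 0.36 ± 0.13 for Nec-1 in 4-OHT organoids (adjusted p = 0.276). The small difference with Nec-1 in EtOH organoids turned to 0.07 with median centring and 0.08 with upper quartile scaling.

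*Ehhadh* (ENSMUSG00000022853, chr16:21761285-21787834), the bifunctional enzyme of peroxisomal β-oxidation, was the most abundant member. It was at 34.7 and 32.3 FPKM in the EtOH DMSO libraries, 38.0 and 38.3 with Nec-1 alone, 30.2 and 31.4 with 4-OHT alone and 40.7 with both agents. The 3 Nec-1 libraries lay above the 4 DMSO libraries, and the 4-OHT DMSO libraries were the lowest. The log2 fold change was −0.12 ± 0.077 for 4-OHT (limma adjusted p = 0.277), 0.19 ± 0.077 for Nec-1 in EtOH organoids (adjusted p = 0.386) and 0.39 ± 0.095 for Nec-1 in 4-OHT organoids (adjusted p = 0.139). With upper quartile scaling the 4-OHT difference was −0.28 with an adjusted p of 0.0398, in a range of 0.0398 to 0.575 over its 15 alternatives.

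*Angptl4* (ENSMUSG00000002289, chr17:33774900-33781575) encodes a secreted inhibitor of lipoprotein lipase. It was at 1.52 and 1.75 FPKM in the EtOH DMSO libraries, 1.36 and 1.16 with Nec-1 alone, 2.79 and 2.40 with 4-OHT alone and 3.07 with both agents. The 3 libraries labelled 4-OHT were above each EtOH library, with the EtOH Nec-1 libraries the lowest. *Angptl4* was the 1 member called in any comparison. It rose 1.59-fold in linear FPKM with 4-OHT, a log2 fold change of 0.45 ± 0.12 (limma adjusted p = 0.0346). The direction held in 15 of 15 alternative fits, but the call held in 4 of them. The adjusted p was 0.0971 with median centring, where the difference shrank to 0.29, and 0.121 and 0.0643 without the first or second EtOH DMSO library. It was 0.12 and 0.0507 without the first or second 4-OHT DMSO library, and it ran from 0.0224 to 0.121 over the 15 alternatives. With Nec-1 the log2 fold change was −0.22 ± 0.12 in EtOH organoids (adjusted p = 0.486) and 0.18 ± 0.15 in 4-OHT organoids (adjusted p = 0.594).

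*Plin2* (ENSMUSG00000028494, chr4:86626910-86670217), which coats lipid droplets, was the steadiest member. It was at 14.5 and 13.4 FPKM in the EtOH DMSO libraries, 13.4 and 12.1 with Nec-1 alone, 13.7 and 14.1 with 4-OHT alone and 12.7 with both agents. The EtOH DMSO libraries overlapped those of EtOH Nec-1 and of 4-OHT DMSO, and the library with both agents lay below each 4-OHT DMSO library. The highest library was 1.19 times the lowest, against 1.35 for *Ehhadh*, 1.64 for *Cpt1a*, 2.02 for *Pparg*, 2.07 for *Ppara* and 2.65 for *Angptl4*. The log2 fold change was −0.0041 ± 0.091 for 4-OHT (limma adjusted p = 0.976), −0.12 ± 0.091 for Nec-1 in EtOH organoids (adjusted p = 0.621) and −0.12 ± 0.11 for Nec-1 in 4-OHT organoids (adjusted p = 0.643).

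The remaining pair of members was scarcely expressed. *Pdk4* (ENSMUSG00000019577, chr6:5483351-5496278), a kinase that shuts off pyruvate dehydrogenase when fat is burned, was at 0.44 and 0.401 FPKM in the EtOH DMSO libraries, 0.323 and 0.444 with Nec-1 alone, 0.363 and 1.37 with 4-OHT alone and 0.918 with both agents. The 4-OHT DMSO libraries were far apart, 1 of them within the EtOH values and the other the highest of all. *Cyp4a10* (ENSMUSG00000066072, chr4:115518287-115533649), an ω-hydroxylase of fatty acids and a classical PPARα target of liver, was at 0.0948 and 0.344 FPKM in EtOH DMSO and 0.162 in 4-OHT Nec-1. It was listed at 0 in both EtOH Nec-1 libraries and in 1 of the 4-OHT DMSO libraries, with 0.0647 FPKM in the other. The other *Cyp4a* genes were as scarce, since 0 of the 8 on the list passed the filter and the highest value of any was 0.479 FPKM, for *Cyp4a29* in a 4-OHT DMSO library. *Cyp4a* genes lie in a cluster of close copies, and values of this size could be divided between copies. With the filter removed, the log2 fold changes with 4-OHT were 0.34 ± 0.29 for *Pdk4* (limma adjusted p = 0.507) and −0.23 ± 0.11 for *Cyp4a10* (adjusted p = 0.264).

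**Figure D2:**
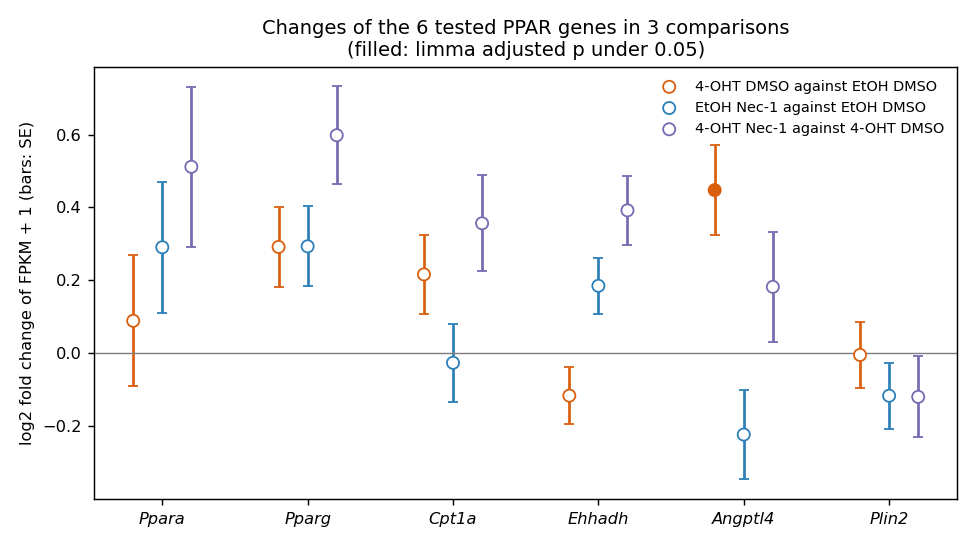
Log2 fold change of FPKM + 1 (vertical axis) of the 6 tested members in 3 comparisons, with the SE from limma as bars and filled points for an adjusted p under 0.05. The only filled point is *Angptl4* in 4-OHT DMSO against EtOH DMSO, at 0.45, and the points for 4-OHT Nec-1 (1 library) are the highest of the 3 for *Ppara*, *Pparg*, *Cpt1a* and *Ehhadh*.

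The comparison of 4-OHT DMSO with EtOH DMSO asked how the members differed between the libraries labelled 4-OHT and those labelled EtOH. Of the 6 tested members, 1 was called, *Angptl4*, in a comparison in which limma called 41.2% of all tested genes and 24.5% as higher. The members therefore held no more calls than the background. A further member, *Pparg*, had an unadjusted p under 0.05, which made 2 members in all, and 0 members were called with an added threshold of 1 log2 unit, which 10.4% of all genes passed. The median log2 fold change over the 6 members was 0.15, beside 0.08 over all tested genes. With median centring these were −0.0041 and −0.08, and all genes then split into 2213 higher and 3187 lower calls, where the deposited scale gave 3117 and 2120.

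Nec-1 in EtOH organoids gave the effect of the inhibitor where 4-OHT had not been added. Limma called 0 of the 6 members, and 0.22% of all tested genes. At an unadjusted p under 0.05 there was 1 member, *Pparg*. The members' median was 0.08 and that of all genes −0.09.

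Nec-1 in 4-OHT organoids was compared through 1 library, so its p-values borrow the spread of the other groups. The share of all genes below is that of adjusted calls, and none is given for an unadjusted p. Limma called 0 of the 6 members, and 1.84% of all tested genes, while 3 members, *Pparg*, *Ehhadh* and *Cpt1a*, had an unadjusted p under 0.05. The 4-OHT Nec-1 library lay above each 4-OHT DMSO library for 5 of the 6 members, against 25.5% of all tested genes, and below each for *Plin2*, against 49.3% of genes. The 4-OHT Nec-1 library also held the highest of the 7 values for those 5 members, against 9.52% of all tested genes. After median centring it held the highest value for 4 members, against 13.4% of genes. These comparisons rest on 1 library and on members chosen with earlier results of these data known, so they are a description. The members' median log2 fold change was 0.37, beside −0.08 over all genes, and 0 members lay 1 log2 unit or more above or below each DMSO library, where 0.756% and 1.15% of all genes did.

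The difference between the Nec-1 effects in 4-OHT and EtOH organoids was tested as an interaction. Limma called 0 of the 6 members, 0 had an unadjusted p under 0.05, and 0.0551% of all tested genes were called. The largest interaction of a member was that of *Angptl4*, 0.40 ± 0.19 (adjusted p = 0.669), followed by *Cpt1a* with 0.38 ± 0.17 (adjusted p = 0.64). *Plin2* was at −0.0031 ± 0.14 (adjusted p = 0.997). A difference in the Nec-1 effect was thus not shown for any member.

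The other genes of the pathway described here were 104 genes on 7 lists by function, of which 80 passed the filter. With 4-OHT, 7 of the 80 rose and 31 fell, beside 24.5% and 16.7% of all tested genes. Over the 15 alternative fits 6 to 10 rose and 27 to 47 fell. Their median log2 fold change was −0.25, against 0.08 over all genes. Of the 31 falls, 11 were mitochondrial and 7 peroxisomal genes of β-oxidation. The 6 tested members held 0 falls, but 6 genes are too few to set this apart from the 16.7% of all tested genes. With upper quartile scaling *Ehhadh* was called lower (−0.28, limma adjusted p = 0.0398).

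Of the 7 ketone body genes described here, 6 passed the filter and 1 of them was called, where 41.2% of all tested genes were. *Slc16a6*, which encodes a carrier that releases ketone bodies from liver cells, rose from 10.8 and 11.6 FPKM to 13.8 and 15.6 (log2 fold change 0.36 ± 0.096, limma adjusted p = 0.0314), a call that held in 5 of 15 alternatives, with adjusted p from 0.0303 to 0.127. It was 0.126 with median centring, and 0.11, 0.0652 and 0.107 without the first EtOH DMSO, the second EtOH DMSO or the second 4-OHT DMSO library. Without the first or the second EtOH Nec-1 library it was 0.0692 or 0.0693. The median of these genes was −0.016, and −0.17 with median centring.

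Of the genes of mitochondrial fatty acid oxidation, 19 of 21 passed the filter, and 11 fell and 2 rose with 4-OHT. Of all tested genes 16.7% fell and 24.5% rose. The largest falls were *Hadh* and *Acaa2*, the dehydrogenase and the thiolase of the β-oxidation cycle. *Hadh* went from 109 and 103 FPKM in EtOH DMSO to 32.4 and 33.9 in 4-OHT DMSO (−1.64 ± 0.075, limma adjusted p = 0.000321), and *Acaa2* from 152 and 141 to 51.8 and 54.2 (−1.45 ± 0.082, adjusted p = 0.000452). *Echs1*, the enoyl-CoA hydratase, fell by 1.08 on the log2 scale. The rises were *Cpt2*, the inner-membrane partner of *Cpt1a* (29.3 and 26.8 FPKM to 42.7 and 52.6, 0.74 ± 0.13, adjusted p = 0.00854), and *Mlycd*, which removes the malonyl-CoA that inhibits CPT1 (0.57 ± 0.089). *Cpt2* thus moved against the enzymes of the cycle. The list's median was −0.43, and −0.59 with median centring.

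Of the peroxisomal genes, 17 of 20 passed the filter, and 7 fell and 0 rose, with 5 to 12 falls over the alternatives and a median of −0.45. The largest falls were *Acox2*, an oxidase of branched substrates, from 4.17 and 4.42 FPKM to 0.969 and 1.45 (−1.27 ± 0.14, limma adjusted p = 0.00211), and *Ech1*, an enoyl-CoA isomerase, from 110.2 and 98.7 to 41.9 and 50.8 (−1.16 ± 0.12, adjusted p = 0.00175). *Ehhadh* was not among them.

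Of the receptors and coregulators, 13 of 14 passed the filter, and with 4-OHT 1 rose and 2 fell. Of all tested genes 24.5% rose and 16.7% fell. *Med1*, the Mediator subunit that nuclear receptors contact, rose from 5.53 and 4.97 FPKM to 10.8 and 9.65 (0.85 ± 0.10, limma adjusted p = 0.0028). *Rxrb*, an RXR, and *Ncor1*, a corepressor, fell by 0.49 and 0.48 on the log2 scale. Their adjusted p were 0.0226 and 0.0212, and the calls held in 11 and 12 of 15 alternatives, with adjusted p up to 0.0913 and 0.0696. Both were lost without a filter on low values and without the first 4-OHT DMSO library, that of *Rxrb* also without either EtOH DMSO library, and that of *Ncor1* also without the second. The list's median was 0.07, and −0.09 with median centring.

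Of the lipid droplet genes, 11 of 16 passed the filter, and 1 rose and 3 fell, beside 24.5% and 16.7% of all tested genes. *Abhd5*, the coactivator of adipose triglyceride lipase, rose from 1.99 and 2.28 FPKM to 4.94 and 4.99 (0.93 ± 0.10, limma adjusted p = 0.00213), and *G0s2*, the inhibitor of that lipase, fell from 4.26 and 3.53 to 1.63 and 1.19 (−1.02 ± 0.14, adjusted p = 0.00421). *Hilpda*, another inhibitor, fell by 0.57 on the log2 scale (adjusted p = 0.0279), a call that held in 9 of 15 alternatives, with adjusted p from 0.0178 to 0.114. *Plin2*, by contrast, was within 0.01 of 0 on that scale.

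On the list of other PPAR targets, 20 of 26 genes passed the filter, *Angptl4* among them, and 3 rose and 8 fell. Of all tested genes 24.5% rose and 16.7% fell. The list also held *Pdk1*, *Pdk2* and *Pdk3*, relatives of the member *Pdk4*, and *Pdk1* and *Pdk2* were among the falls. *Vnn1*, a pantetheinase, had the largest rise of all pathway genes, from 3.27 and 4.76 FPKM in EtOH DMSO to 26.9 and 31.2 in 4-OHT DMSO (2.59 ± 0.16, limma adjusted p = 0.000526). *Acsl3*, an acyl-CoA synthetase of lipid droplets, rose by 0.58 ± 0.11. *Pdk2*, a relative of *Pdk4* with the same substrate, fell from 19.6 and 22.2 FPKM to 4.25 and 5.35 (−1.92 ± 0.13, adjusted p = 0.000595). *Slc27a2*, a fatty acid transporter, and *Pdk1* fell by 1.08 and 1.04 on the log2 scale.

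**Figure D3:**
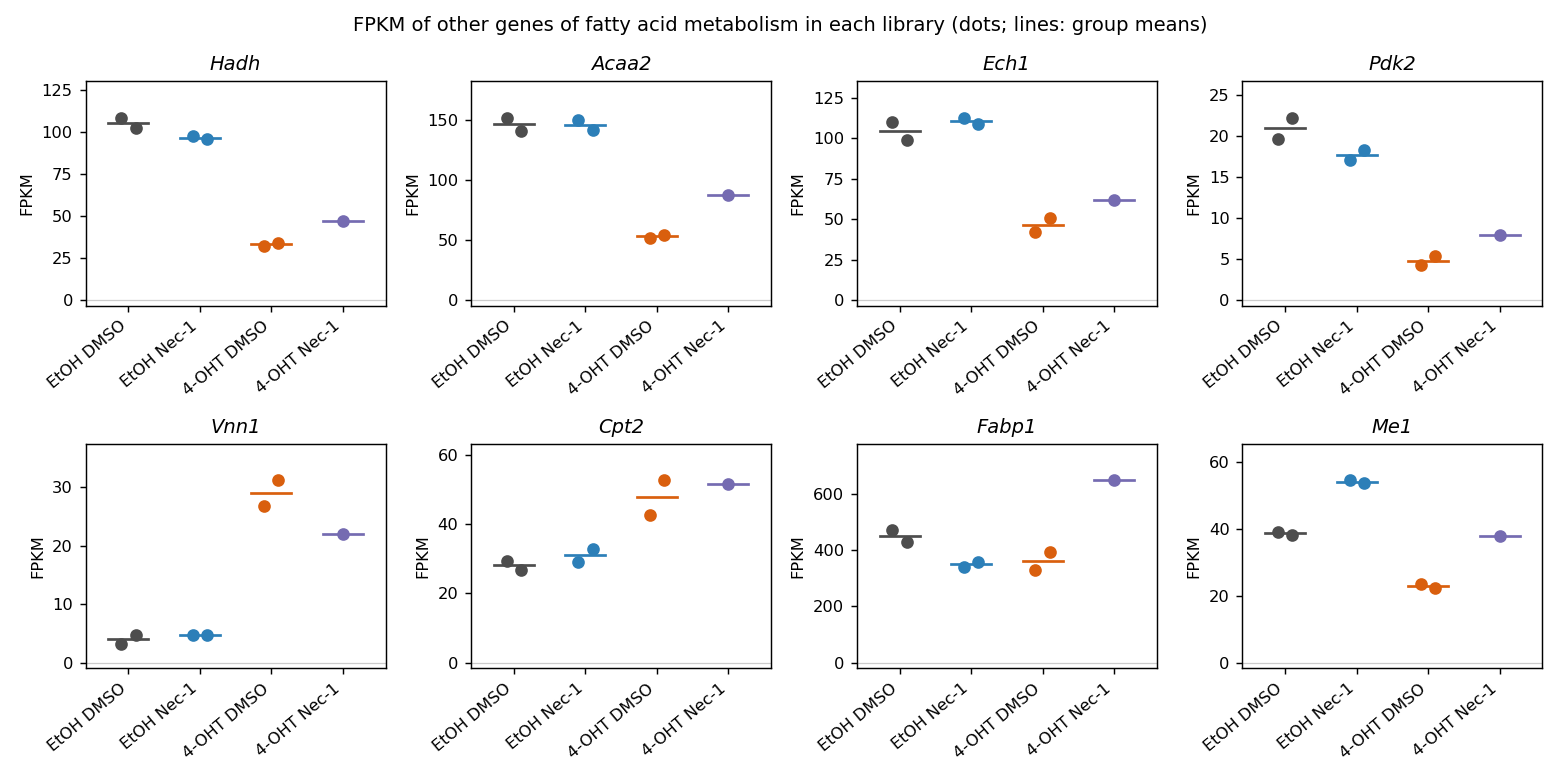
FPKM (vertical axes, linear, from 0) of 8 pathway genes that are no members, in the 7 libraries; dots are libraries and lines group means. *Hadh*, *Acaa2*, *Ech1* and *Pdk2* are lower and *Vnn1* and *Cpt2* higher in all 3 libraries labelled 4-OHT than in any EtOH library, and *Fabp1* is highest in 4-OHT Nec-1, at 647 FPKM.

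With Nec-1 in EtOH organoids limma called 0 of the 80 other pathway genes, 14 of them had an unadjusted p under 0.05, and their median was −0.07. With Nec-1 in 4-OHT organoids 2 of the 80 rose and 0 fell, where 0.819% and 1.02% of all genes did. *Acaa2* went from 51.8 and 54.2 FPKM to 87.0 (0.71 ± 0.10, limma adjusted p = 0.0419) and *Me1*, the cytosolic malic enzyme that makes NADPH, from 23.5 and 22.4 to 38.0 (0.71 ± 0.089, adjusted p = 0.0284). *Me1* was called lower with 4-OHT alone (−0.73 ± 0.073, limma adjusted p = 0.00165). With Nec-1 in EtOH organoids its difference was 0.47 ± 0.073 (adjusted p = 0.122). The 4-OHT Nec-1 value of *Acaa2* remained below the 141 to 152 FPKM of the EtOH libraries. Both calls were lost in 8 of 14 alternatives, among them the removal of any EtOH library or of the second 4-OHT DMSO library, and their adjusted p reached 0.424 when only the 3 libraries of the comparison were fitted.

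The lists too were chosen with earlier results of these data known, and the next counts rest on 1 library. Below the threshold, 50 of the 80 lay above each 4-OHT DMSO library in the 4-OHT Nec-1 library, beside 25.5% of all genes. By list, *Ehhadh* and the other members included, this held for 16 of 17 peroxisomal genes, 12 of 19 mitochondrial genes, 9 of 13 receptors and coregulators and 14 of 20 other targets, but for 1 of 6 ketone body genes and 3 of 11 lipid droplet genes. The medians of these lists were 0.33, 0.20, 0.06, 0.23, −0.04 and −0.12, beside −0.08 over all genes. *Fabp1*, the abundant fatty acid binding protein of absorptive cells, named after its values were seen, was at 471 and 427 FPKM in the EtOH DMSO libraries, 340 and 359 with Nec-1 alone, 328 and 394 with 4-OHT alone and 647 with both agents (0.85 ± 0.15 with Nec-1 in 4-OHT organoids, limma adjusted p = 0.0672). The interaction was called for 0 of the 80, and 15 had an unadjusted p under 0.05.

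**Figure D4:**
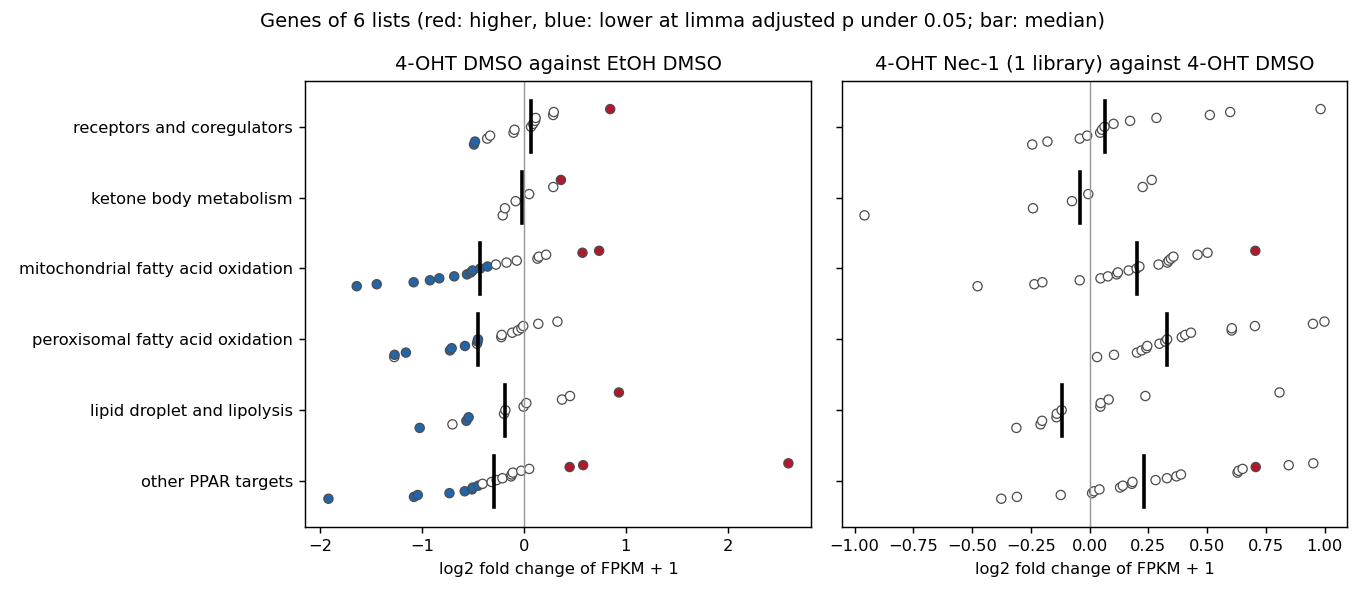
Log2 fold change of FPKM + 1 (horizontal axes) of the tested genes of 6 lists (rows; the *Cyp4a* list had 0 tested genes), for 4-OHT DMSO against EtOH DMSO on the left and 4-OHT Nec-1 (1 library) against 4-OHT DMSO on the right, on different scales. Red and blue points are genes called higher and lower and bars are list medians, which lie at −0.43 and −0.45 for mitochondrial and peroxisomal genes on the left and at 0.20 and 0.33 on the right.

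Markers of cell types and of other responses moved with the same libraries, and in bulk samples fewer cells of a type and less RNA per cell cannot be told apart. Of all tested genes 24.5% were called higher and 16.7% lower with 4-OHT. With 4-OHT, 5 of 11 tested enterocyte markers fell and 3 rose, *Alpi* and *Sis* falling by 1.53 and 1.37 on the log2 scale, and the 12 listed markers summed to 1169 to 1205 FPKM in EtOH DMSO, 976 to 1024 with Nec-1 alone, 967 to 988 with 4-OHT alone and 890 with both agents. Of 7 stem cell markers, 3 fell and 0 rose with 4-OHT, *Smoc2*, *Olfm4* and *Lgr5* falling by 1.3, 0.87 and 0.65 on the log2 scale. Their median was −0.36, and 1 to 4 fell under the alternatives, the fewest, 1, without the second EtOH DMSO library. The stem cell sum was 79.3 to 80.0 FPKM in EtOH DMSO and 60.2 to 60.6 with Nec-1 alone. It was 51.7 to 74.0 in 4-OHT DMSO and 44.9 with both agents. With Nec-1 in EtOH organoids all 7 stem cell markers had a negative difference, with a median of −0.40, and 0 were called. All 6 Paneth, 7 goblet and 6 enteroendocrine markers rose with 4-OHT, with 6, 5 to 7 and 5 to 6 called over the 15 alternatives. The Paneth sum was 7190 to 7919.6 FPKM in EtOH DMSO and 18978 to 19539.5 in 4-OHT DMSO. Of 12 hypoxia response genes, a group that shares *Angptl4* and *Pdk1* as known targets, 6 fell and 1 rose, and their sum was 2250 to 2379 FPKM in EtOH DMSO and 1539 to 1781 in 4-OHT DMSO. All 10 interferon response genes rose with 4-OHT, with a median log2 fold change of 3.95, and 4 to 10 were called over the 15 alternatives. Their sum went from 19.4 and 20.6 FPKM to 753 and 1073. The part of these in the falls of oxidation genes, or in the rise of *Angptl4*, was not tested.

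With Nec-1, 2 of 4 tested targets of the aryl hydrocarbon receptor rose in 4-OHT organoids, and *Cyp1a1* was at 170 FPKM there and at 57.4 and 56.0 in EtOH Nec-1, against at most 0.322 in the DMSO libraries. All 10 interferon response genes fell with Nec-1 in 4-OHT organoids, their sum going from 753 and 1073 FPKM to 76.7. Of these falls, 3 were called without either EtOH DMSO library, 4 without either EtOH Nec-1 library and 0 with only the libraries of the comparison, while each of the 10 genes lay below both DMSO libraries. Of 11 tested enterocyte markers, 7 had a positive and 4 a negative difference with Nec-1 in 4-OHT organoids, with a median of 0.37, beside 0.37 for the 6 tested members. The 4-OHT Nec-1 library lay above each DMSO library for 6 of them and below each for 4, and 8 had an unadjusted p under 0.05. The differences were 1.03 for *Alpi*, 0.90 for *Apob* and 0.44 for *Rbp2* (limma adjusted p = 0.0815, 0.171 and 0.19), and −0.70 for *Apoa1* (adjusted p = 0.0541). *Apoa4* fell by 1.33 on the log2 scale (limma adjusted p = 0.0173), the only enterocyte call in this comparison, and the call was lost when any 1 of the 4 EtOH libraries was left out. With Nec-1 in EtOH organoids *Apoa4* was also the only enterocyte call, with a log2 fold change of −1.62 (limma adjusted p = 0.0102). *Apoa1* was at −0.82 there (adjusted p = 0.0603). Over the 15 alternatives of that comparison 0 to 2 enterocyte markers were called lower. In 4-OHT Nec-1 the lowest sum of the enterocyte markers thus stood beside a positive median. A sum of FPKM gives abundant markers more weight, while a median gives each marker the same, so neither counts cells. All 6 Paneth markers lay below each 4-OHT DMSO library, their sum falling to 14403 FPKM, and 0 of them were called by limma, with 4 at an unadjusted p under 0.05. Fat cell markers, which PPARγ drives in adipose tissue, summed to 0.0418 to 0.248 FPKM in the other 6 libraries and to 1.35 in 4-OHT Nec-1, where *Cfd* was at 0.748 and *Adipoq* at 0.0755 FPKM after being listed at 0 elsewhere, and *Lep* was listed at 0 in every library. Of the 6 fat cell markers 0 passed the filter on low values, so none was tested. The part of these markers and responses in the values of *Pparg* and the other members was not tested.

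The genes most like each tested member over the 7 libraries were named by Pearson's r of log2(FPKM + 1), as a description over points that share groups. *Pparg* was most like *Insig2* (r = 0.991) and *Tiparp* (r = 0.985), the latter on the list of aryl hydrocarbon receptor targets. Both were also highest in 4-OHT Nec-1, at 16.6 and 14.7 FPKM. *Ehhadh* was most like *Cyp2j6* (r = 0.986) and *Cyp2c66* (r = 0.973), the latter at 18.3 and 22.0 FPKM with 4-OHT alone and 196 with both agents. *Cpt1a* was most like *Acot4* (r = 0.974), a peroxisomal thioesterase of the pathway lists, and *Ubxn2a* (r = 0.962). *Angptl4* was most like *Atp8b1* (r = 0.998) and *Hmgxb3* (r = 0.994), *Ppara* like *Gm24727* (r = 0.976) and *Dennd4c* (r = 0.975), and *Plin2* like *Ppp6c* (r = 0.957) and *1110038F14Rik* (r = 0.954). Among the members themselves r over the 7 libraries was highest for *Cpt1a* with *Angptl4*, at 0.90, and lowest for *Ppara* with *Plin2*, at −0.81.

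The PPAR-RXR pair is known to bind 2 AGGTCA hexamers in a row that are spaced by 1 base of any kind. RefSeq promoters (GRCm38.p6, 250 bases before to 50 after the start) were given for 6 of the 8 members, in 8 windows, and both strands were searched. Of the 8 windows 4 held a single AGGTCA hexamer, which 16.3% of all 32851 promoter windows held, and 0 held the whole element, which 0.0396% held. With at most 2 mismatches over its 12 fixed bases, a limit set after no exact match was found, 1 of 8 member windows matched, that of *Plin2*, against 3.86% of all windows. Of 110 windows of 88 pathway genes 11 matched at this limit, and *Fabp1* alone matched with 1 mismatch, as did 0.554% of all windows at 1 or fewer. Sequences are shown 5′ to 3′ on the gene's strand, in lower case, for the members with the closest match or a hexamer, and for *Fabp1*. Capitals mark the 13 bases of the closest match in *Plin2* and *Fabp1*, where it lies on the opposite strand, and the 6 bases of the hexamer in *Cpt1a*, where it lies on the opposite strand too, and *Pparg*.
Plin2 promoter, chr4:86670010-86670309, minus strand: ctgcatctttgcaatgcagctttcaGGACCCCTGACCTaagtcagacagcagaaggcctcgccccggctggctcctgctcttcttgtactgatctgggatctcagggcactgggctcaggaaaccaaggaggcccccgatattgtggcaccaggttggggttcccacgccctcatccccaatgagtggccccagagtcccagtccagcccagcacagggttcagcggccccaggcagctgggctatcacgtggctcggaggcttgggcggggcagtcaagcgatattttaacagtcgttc
Cpt1a promoter, chr19:3323051-3323350, plus strand: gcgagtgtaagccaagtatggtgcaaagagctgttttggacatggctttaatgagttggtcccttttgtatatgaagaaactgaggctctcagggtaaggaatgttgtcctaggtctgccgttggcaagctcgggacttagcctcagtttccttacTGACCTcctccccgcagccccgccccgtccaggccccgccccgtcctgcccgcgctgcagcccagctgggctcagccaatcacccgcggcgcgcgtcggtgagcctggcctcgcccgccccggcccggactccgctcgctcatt
Pparg first promoter, chr6:115360894-115361193, plus strand: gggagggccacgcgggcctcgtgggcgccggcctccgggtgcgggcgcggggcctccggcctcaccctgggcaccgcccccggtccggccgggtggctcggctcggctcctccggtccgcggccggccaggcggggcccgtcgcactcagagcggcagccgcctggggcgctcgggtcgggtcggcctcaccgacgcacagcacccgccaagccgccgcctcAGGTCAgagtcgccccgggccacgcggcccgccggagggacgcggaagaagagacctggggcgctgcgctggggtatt
Fabp1 promoter, chr6:71199629-71199928, plus strand: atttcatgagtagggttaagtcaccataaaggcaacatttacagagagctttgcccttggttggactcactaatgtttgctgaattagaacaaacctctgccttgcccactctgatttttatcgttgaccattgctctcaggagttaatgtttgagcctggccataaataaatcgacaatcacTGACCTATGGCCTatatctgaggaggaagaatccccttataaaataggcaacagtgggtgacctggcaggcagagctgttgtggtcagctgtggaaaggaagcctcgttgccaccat
The marked run began 225 bases before the start in *Plin2*, 94 before it in *Cpt1a*, 28 before it in *Pparg* and 67 before it in *Fabp1*. The window nearest to the element among members was thus that of *Plin2*, the member with the steadiest level, and the windows of *Ppara*, *Pdk4* and *Ehhadh* held neither a hexamer nor a match. Such matches are a description of letters and not of binding.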

How the data were processed

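Bulk RNA-seq of 7 organoid libraries was used. The authors deposited FPKM per Ensembl gene, and 2 columns of one table repeated other libraries to within rounding, while 0 columns were left unmapped. The submitters' processing notes name HISAT2 2.1.0, StringTie 1.3.3b and the build mm10 without their roles, and the annotation is not given in the sources used here. FPKM are relative to each library's total, so a few abundant genes can shift all others. Groups were taken from the sample labels. The 2 Atf3 ChIP samples were not analysed here, and 1 item, kept out of the lists and their counts and figures, is not reported here.

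Ensembl IDs were matched to symbols through a reference list of gene names, and gene locations came from RefSeq for GRCm38.p6. limma 3.58.1 (R 4.3.3), with a mean-variance trend, fitted 1 mean per group over all 7 libraries to log2(FPKM + 1), for genes that reached 1 FPKM in 2 or more libraries. Python 3.11.15, numpy 2.4.6, pandas 2.3.3 and matplotlib 3.10.9 were used for the rest, and the fit was tested on simulated data. Members, lists and the motif search were chosen with earlier results of these data known. Named were all members, pathway genes past the threshold with a change of at least 1 log2 unit, the 2 largest rises and 2 largest falls past the threshold per list and comparison, and the 2 genes most like each member. Alternatives were median centring, upper quartile scaling, no trend, no filter, 1 FPKM in every library, a pseudocount of 0.1, an added threshold of 1 log2 unit, the replicate number as a block, only the libraries compared, and each library left out. List medians and counts under these settings, the scaling of the highest library and the mismatches of the motif were added after the data were seen.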

Additional observations from a re-analysis of the deposited data

How the results depend on the processing

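Of 654 values of members and named genes under the alternatives, 586 kept their direction and their side of the threshold, 50 kept their direction but were no longer called, 2 became called and 16 changed sign; the cause was not tested. With 4-OHT, the count of called members went from 1 to 0 with median centring, no filter on low values, the replicate block, only the libraries compared and an added threshold of 1 log2 unit, and was 0 to 1 with a library left out. With upper quartile scaling it stayed at 1, but the called member was *Ehhadh* and not *Angptl4*, and without the first 4-OHT DMSO library it was *Pparg*. Nec-1 comparisons kept 0 called members in every alternative, 16 in EtOH organoids, 16 in 4-OHT organoids and 14 of the interaction.

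Counts over all genes moved more. With 4-OHT 5237 genes became 1319 with the added threshold. With Nec-1 in EtOH organoids 28 became 43 with upper quartile scaling, 8 without a filter and 87 with only the libraries compared, and 9 to 79 with a library left out. With Nec-1 in 4-OHT organoids 234 became 573 without a filter, 90 with the replicate block and 0 with only the libraries compared (limma, 3 libraries), and 33 to 635 with a library left out. The interaction's 7 became 219 without a filter, 3 with 1 FPKM in every library and 4 with the replicate block, and 1 to 323 with a library left out.

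Sign changes were small. For 4-OHT, *Ppara* was −0.068 with median centring, −0.036 with upper quartile scaling and −0.13 to 0.31 with a library left out, and *Plin2* −0.057 to 0.049 with a library left out. For Nec-1 in EtOH organoids, *Cpt1a* was 0.073 with median centring, 0.078 with upper quartile scaling and −0.11 to 0.061 with a library left out. For Nec-1 in 4-OHT organoids *Plin2* was 0.0062 with upper quartile scaling, and for the interaction *Plin2* was 0.012 with median centring, 0.022 with upper quartile scaling and −0.072 to 0.066 with a library left out. Replicate numbers did not pair the libraries (correlations of deviations −0.04, 0.0065 and −0.012), so the block shares only a number.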
